A study of Homo sapiens with 12 samples.

Results

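Transcripts of 39 genes of glycolysis and of the response to low oxygen were followed in HCT116 cells, which are an established line from a human colorectal carcinoma. The genes were chosen by name, and their probes by the gene symbol in the annotation of the array. Of the 39 genes, 36 had a probe there, and 34 of these were detected on at least 3 of the 12 arrays and were tested among 11785 genes in all. SLC16A1, SLC16A3 and CA9 had no probe in the annotation and were not analysed here. EGLN3, an oxygen sensor that is itself induced by hypoxia, was detected on 1 of 12 arrays, and PDK1, a kinase that switches off pyruvate dehydrogenase, on 0 of 12, so neither was tested. Each of the 34 tested probes was detected on all 12 arrays, so none of them passed the filter through 1 group alone.

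The design crossed a hairpin with a drug. Wip1SH cells carried a short hairpin RNA against Wip1, the phosphatase encoded by PPM1D that switches off p53, ATM and other parts of the DNA damage response, and WT cells were the parental line. ATMi stands for a compound that blocks ATM, a kinase activated by broken DNA. It was used at 10 µM over 3 days with daily renewal. Parental cells without and with the drug (WT and WT+ATMi) and depleted cells without and with it (Wip1SH and Wip1SH+ATMi) were read on 3 arrays per group, called biological replicates in the design text, from cells grown in DMEM with fetal calf serum. No group carried a control hairpin, so the depletion comparisons hold every other difference between the Wip1SH cells and the parental line, and no vehicle is named for the groups without inhibitor. The labels give no oxygen level or glucose concentration. The arrays read total RNA of whole cultures, so a lower share of expressing cells and less RNA per cell cannot be told apart.

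Glycolysis breaks glucose down to pyruvate in the cytosol. Hexokinases trap glucose as its phosphate, phosphofructokinases commit it to the pathway, aldolases split the sugar, and enolases and pyruvate kinase finish the yield of ATP. Lactate dehydrogenase then turns pyruvate into lactate, which many tumour cells do even when oxygen is present. The hypoxia-inducible factors HIF1 and HIF2 pair an oxygen-labile alpha subunit (HIF1A or EPAS1) with ARNT and bind short DNA elements with the core ACGTG or GCGTG. Prolyl hydroxylases such as EGLN1 mark the alpha subunits for VHL and destruction when oxygen is plentiful. Most of the genes described here are known HIF targets: glucose carriers, nearly every glycolytic step, VEGFA for vessel growth, BNIP3 and BNIP3L for removal of mitochondria, and feedback genes such as EGLN1 itself.

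Values are log2 intensities after normalization, and a difference of 1 is a 2-fold change. The figure after ± is the standard error of the fold change on that scale, n is 3 arrays per group, and p-values come from limma with Benjamini-Hochberg adjustment over all 11785 genes, with a threshold of 0.05. The hairpin target PPM1D was lower in Wip1SH than in WT (-1.66 ± 0.10, adjusted p = 2.57e-06) and under the inhibitor the same difference was -1.85. Of 12 colon epithelial markers, 7 were detected on all 12 arrays (EPCAM, CDH1, KRT8, KRT18, KRT19, CDX2 and CLDN3), while VIL1, LGALS4 and CDH17 were detected on 0, and 6 of 6 endothelial markers were detected on 0. Of the immune markers PTPRC, CD3E, MS4A1 and NKG7 were detected on 0 arrays and CD68 on 12, and of the 8 fibroblast markers COL1A1 was detected on 12, DCN on 3, COL1A2 on 1 and 5 on 0. Array brightness moved with the groups: the WT arrays had 17650 to 17929 detected probes, with 18568 to 18961 on Wip1SH, 18723 to 19654 on WT+ATMi and 19505 to 20408 on Wip1SH+ATMi. The normalization gives every array the same distribution. With arrays scaled only to equal medians over all probes, the median change over all genes moved from 0.01 to 0.24 for Wip1SH against WT, from 0.03 to 0.43 for WT+ATMi against WT, from 0.02 to 0.15 for Wip1SH+ATMi against Wip1SH, from 0.01 to -0.01 for Wip1SH+ATMi against WT+ATMi, and from 0.04 to 0.40 for Wip1SH+ATMi against WT. Under that scaling 37 of the 69 calls described below were lost or reversed. Relative to those shifted medians, all 69 had the direction given here. Taking the median away largely puts back the centring of the normalization, so this is no separate check of the calls. When the count of detected probes entered the fit as a covariate, 59 of the 69 calls were lost. The WT counts overlapped with those of no other group, and those of Wip1SH did not overlap with those of Wip1SH+ATMi. In these comparisons the fit could hardly separate group from count, and its lost calls do not decide between them. The counts of WT+ATMi and Wip1SH+ATMi did overlap. Between these groups the calls of PFKP, GAPDH, ENO2, VEGFA, ADM, EGLN1 and MXI1 were lost with the covariate.

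**Figure D1:**
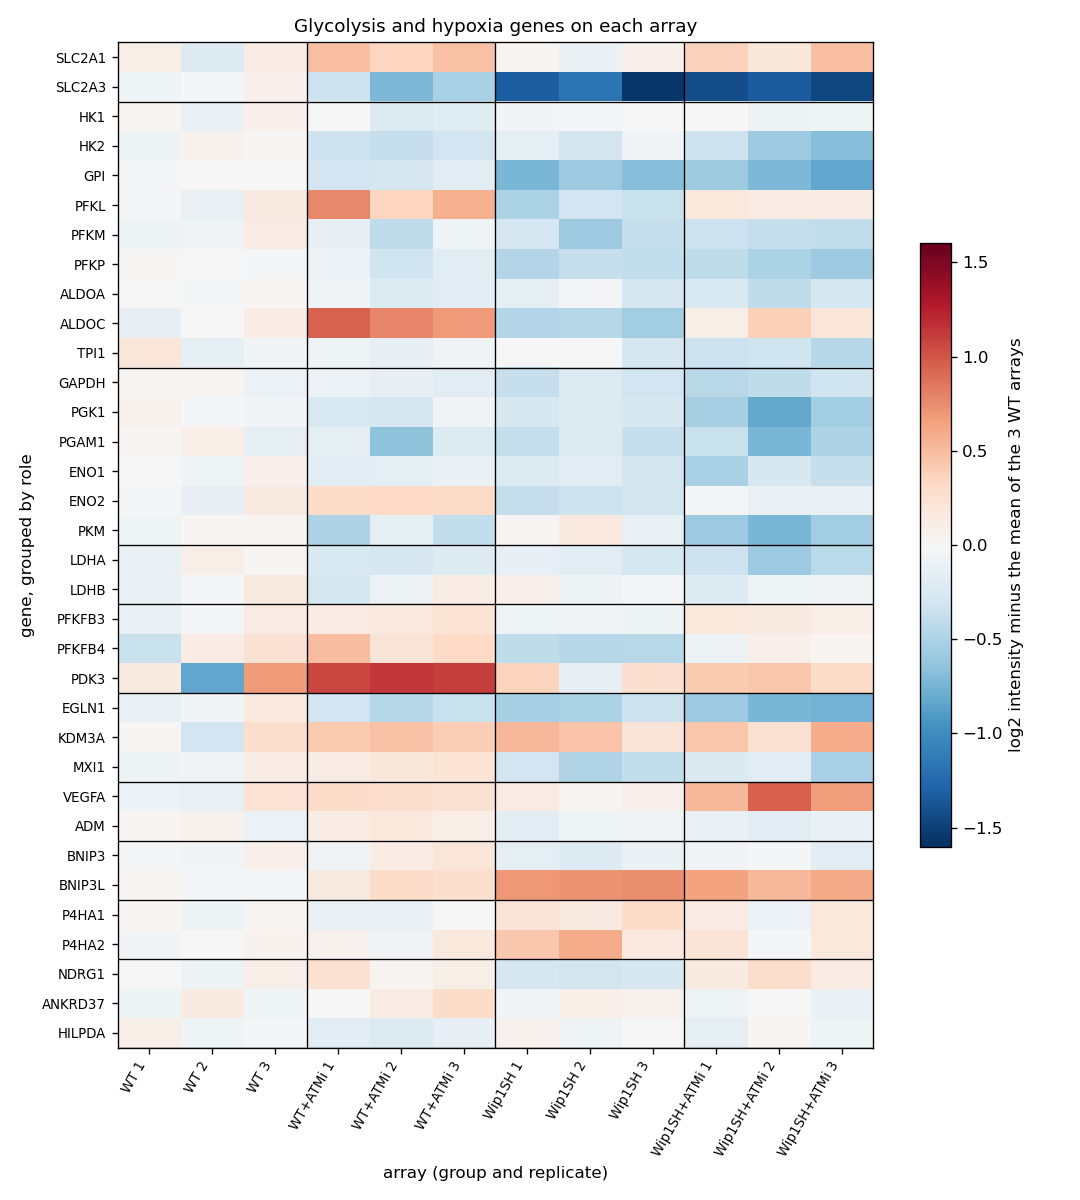
Normalized log2 intensity of the 34 tested genes on each of the 12 arrays, as the difference from the mean of the 3 WT arrays of the same gene; columns are arrays by group and replicate, and rows are genes by role. SLC2A3 is lowest on the 6 arrays of depleted cells, BNIP3L is high on the same arrays, and PFKL, ALDOC and ENO2 are high on the WT+ATMi arrays and low on the Wip1SH arrays.

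Depletion of Wip1 without the inhibitor went with lower transcripts of 13 of the 34 genes and higher transcripts of 2 (38.2% and 5.88%). Over all genes 15.4% were lower and 16.8% higher, 32.2% in all. The median log2 fold change of the 34 genes was -0.16 against 0.01 for all genes. With equal array medians over all probes 2 of the genes were called lower and 4 higher, the value of NDRG1 turned to 0.01, and the members' median of 0.08 stood below the 0.24 of all genes. The 13 lower genes were the glucose carrier SLC2A3, 5 of the 9 genes of the steps from hexokinase to triose isomerase, 3 of the 6 from GAPDH to pyruvate kinase, the regulatory kinase PFKFB4, the feedback genes EGLN1 and MXI1, and NDRG1.

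SLC2A3, the high-affinity glucose carrier GLUT3 on chromosome 12, had the largest difference of the 34 genes between Wip1SH and WT. Its log2 intensity was 8.003, 8.06 and 8.16 on the WT arrays and 6.76, 6.90 and 6.52 on the Wip1SH arrays. Every Wip1SH array was below every WT array, and the mean was 2.54-fold lower (-1.35 ± 0.11, adjusted p = 1.97e-05). Under the inhibitor the values were 7.73, 7.35 and 7.55 in WT+ATMi and 6.66, 6.74 and 6.62 in Wip1SH+ATMi. The groups did not overlap there either (-0.87 ± 0.11, adjusted p = 0.000351). SLC2A1, the basal carrier GLUT1, was at 0.01 and -0.10 in the same comparisons and passed the test in neither. SLC2A14 is a close copy of SLC2A3. The SLC2A14 probe was detected on 0 arrays, and whether the SLC2A3 probe also reads SLC2A14 was not tested.

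Among the enzymes of the upper steps, GPI, which turns glucose 6-phosphate into fructose 6-phosphate, had the largest fall. It was at 11.62, 11.65 and 11.65 on the WT arrays and at 10.91, 11.06 and 10.96 on the Wip1SH arrays. The groups stood well apart, 1.58-fold (-0.66 ± 0.08, adjusted p = 0.000191), and the difference under the inhibitor was -0.46 ± 0.08 (adjusted p = 0.0025). All 3 phosphofructokinase genes fell: PFKL by 0.39, PFKM by 0.41 and PFKP by 0.41 on the log2 scale (adjusted p = 0.0198, 0.0146 and 0.00288). ALDOC, the aldolase known best from brain, was at 8.36, 8.50 and 8.62 in WT and at 8.03, 8.03 and 7.94 in Wip1SH. Its arrays did not overlap (-0.49 ± 0.10, adjusted p = 0.00374). The main aldolase ALDOA was at -0.15 and TPI1, which interconverts the 2 triose phosphates, at -0.08, and neither passed the test.

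In the lower steps GAPDH (-0.30 ± 0.07, adjusted p = 0.0114), the neuronal enolase ENO2 (-0.34 ± 0.08, adjusted p = 0.00714) and the general enolase ENO1 (-0.23 ± 0.08, adjusted p = 0.0444) were lower in Wip1SH. PGK1 and PGAM1 had no array of Wip1SH above the lowest WT array but did not pass the test, with log2 fold changes of -0.24 and -0.32. PKM, pyruvate kinase, was at 0.02. LDHA and LDHB, the subunits of lactate dehydrogenase, were at -0.19 and -0.01. GAPDH, PGK1, PGAM1, ENO1, PKM and LDHA have processed pseudogenes, and whether their probes read those was not tested.

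Among the hypoxia genes, BNIP3L, a receptor for the removal of mitochondria, moved the other way. It was at 9.28, 9.23 and 9.22 in WT and at 9.93, 9.96 and 9.99 in Wip1SH. Every Wip1SH array was above every WT array, and the mean was 1.64-fold higher (0.72 ± 0.07, adjusted p = 4.44e-05). Its relative BNIP3 was at -0.15 and was not called. EGLN1, the main oxygen sensor of the HIF system, was at 7.98, 8.05 and 8.26 in WT and at 7.57, 7.59 and 7.76 in Wip1SH. The arrays did not overlap (-0.46 ± 0.09, adjusted p = 0.00391). MXI1, an antagonist of MYC, was at -0.39 ± 0.10 (adjusted p = 0.0119) and P4HA2, a collagen prolyl hydroxylase, at 0.39 ± 0.11 (adjusted p = 0.0214). VEGFA, ADM, KDM3A, P4HA1, ANKRD37 and HILPDA were not called, with log2 fold changes of 0.09, -0.10, 0.40, 0.22, 0.05 and 0.01.

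Of the 15 calls, 9 were kept whichever array was left out. PFKL was lost without WT replicate 3 or Wip1SH replicate 1 (-0.32 and -0.33), PFKM without WT replicate 3 or Wip1SH replicate 2 (-0.34 and -0.32), and NDRG1 without WT replicate 3 or Wip1SH replicate 1 or 2 (-0.23, -0.28 and -0.26). P4HA2 was lost without WT replicate 1 or 2 (0.37 and 0.39) or the same replicates of Wip1SH (0.37 and 0.29), and PFKFB4 without WT replicate 2 or 3 (-0.38 and -0.32) or any Wip1SH array (-0.46, -0.43 and -0.43). The ENO1 call was lost without any of 10 of the 12 arrays, the exceptions being Wip1SH+ATMi replicates 1 and 2, with log2 fold changes of -0.27 to -0.19.

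When both cell types had the inhibitor, depletion went with 11 lower and 2 higher of the 34 genes, against 10.7% and 10.5% of all genes (21.2% in either direction). Their median was -0.20 against 0.01. Scaled to equal array medians over all probes, 7 were lower and 1 higher. The 2 depletion comparisons share no array. Called lower in both were 9 genes, SLC2A3, GPI, PFKL, PFKP, ALDOC, GAPDH, ENO2, EGLN1 and MXI1, which is 26.5% of the members against 6.38% of all genes. Called higher in both was BNIP3L alone (2.94% of members against 6.43% of all genes). With equal array medians over all probes, only SLC2A3 and GPI of the 9 stayed called lower in both. The calls of PFKL, PFKP, ALDOC, GAPDH, ENO2, EGLN1 and MXI1 without inhibitor were lost, as was that of BNIP3L under the inhibitor (0.35).

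PGK1, phosphoglycerate kinase, was called only under the inhibitor. It was at 12.43, 12.39 and 12.62 in WT+ATMi and at 12.13, 11.85 and 12.11 in Wip1SH+ATMi, with no overlap (-0.45 ± 0.09, adjusted p = 0.00535), but the interaction described below did not separate this from the -0.24 without inhibitor. VEGFA, the vessel growth factor, was at 7.14, 7.10 and 7.08 in WT+ATMi and at 7.36, 7.80 and 7.51 in Wip1SH+ATMi. Every depleted array was higher (0.45 ± 0.12, adjusted p = 0.0169). The peptide hormone gene ADM was lower (-0.27 ± 0.07, adjusted p = 0.0206). For the genes called in both comparisons, the differences under the inhibitor were -0.58 for ALDOC, -0.48 for MXI1, -0.43 for PFKL, -0.40 for ENO2, -0.32 for EGLN1, -0.31 for PFKP, -0.25 for GAPDH and 0.36 for BNIP3L.

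Leaving out arrays kept 7 of these 13 calls throughout. PFKL was lost without WT+ATMi replicate 1 or 3 (-0.32 and -0.42), VEGFA without WT+ATMi replicate 3 or Wip1SH+ATMi replicate 2 (0.44 and 0.33), ADM without WT+ATMi replicate 2 or Wip1SH+ATMi replicate 2 (-0.25 each) and PFKP without WT+ATMi replicate 1 or 3 or Wip1SH+ATMi replicate 3 (-0.25, -0.30 and -0.27). EGLN1 was lost without WT+ATMi replicate 1 or 3 or Wip1SH+ATMi replicate 2 or 3 (-0.29, -0.31, -0.30 and -0.28), and GAPDH without any WT+ATMi array (-0.23, -0.25 and -0.28) or Wip1SH+ATMi replicate 1 or 2 (-0.23 and -0.25).

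**Figure D2:**
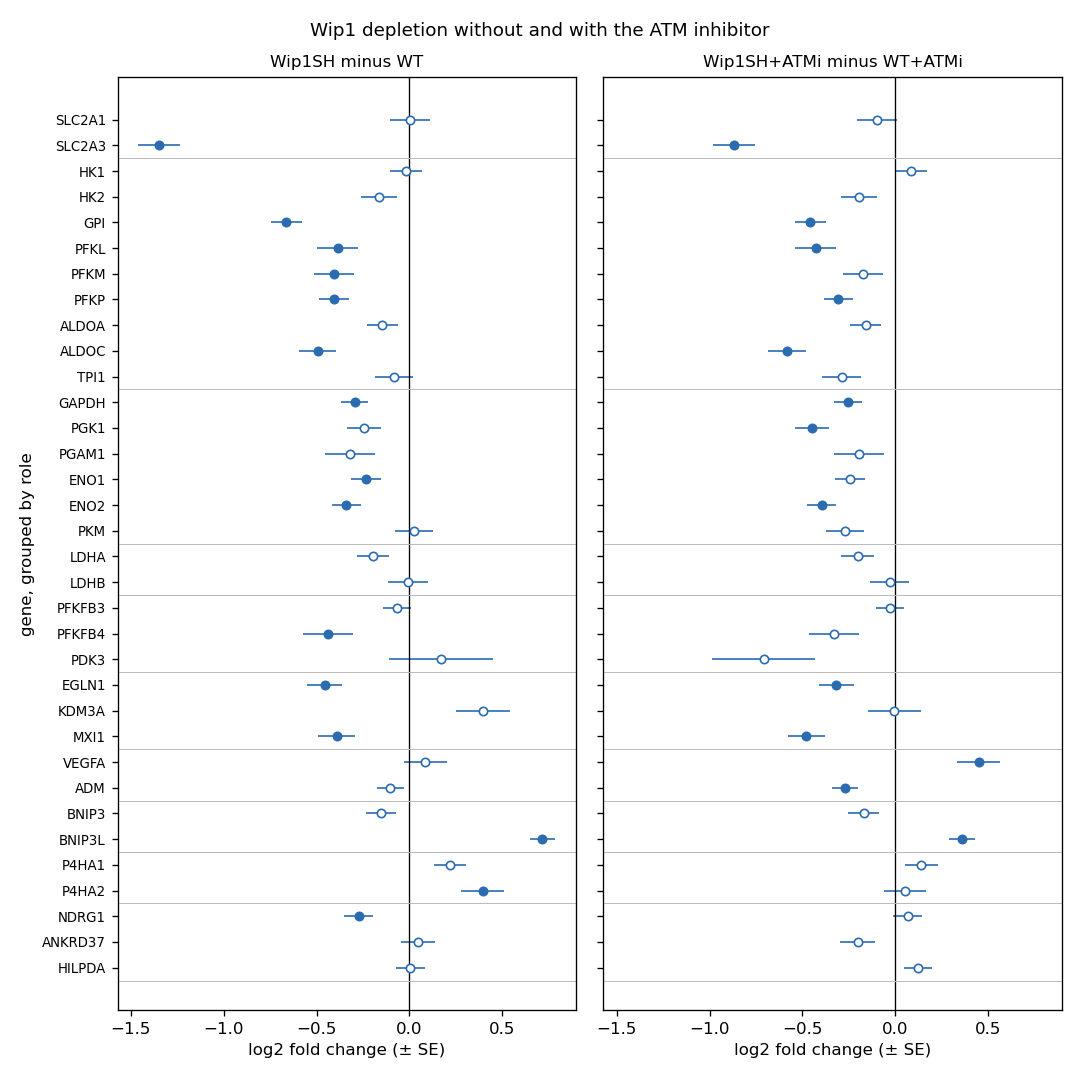
Log2 fold change of each tested gene on Wip1 depletion, without the inhibitor (left) and with it (right); points are estimates from 3 arrays per group, bars are ± 1 standard error, and filled points passed the adjusted threshold. SLC2A3 lies farthest to the left in both panels at -1.35 and -0.87, and BNIP3L is filled on the right side of 0 in both; with arrays scaled to equal medians over all probes the left panel would have 2 filled points below 0 and 4 above.

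The inhibitor in the parental cells went with 7 higher and 5 lower of the 34 genes, where 15.4% of all genes were higher and 10.0% lower, 25.5% in all. These were 20.6% and 14.7% of the genes, near those backgrounds, and the medians were -0.08 for the 34 genes and 0.03 for all. Under equal array medians over all probes 18 were called higher and 0 lower. Higher were the carrier SLC2A1, the enzymes PFKL, ALDOC and ENO2, the kinase PDK3, the histone demethylase KDM3A and BNIP3L. Lower were SLC2A3, HK2, GPI, PKM and EGLN1.

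ALDOC rose from 8.36, 8.50 and 8.62 in WT to 9.44, 9.28 and 9.18 in WT+ATMi. The groups were far apart, 1.75-fold (0.81 ± 0.10, adjusted p = 0.000354). PFKL, the liver form of phosphofructokinase, was at 8.42, 8.31 and 8.58 in WT and at 9.21, 8.78 and 9.01 in WT+ATMi. All treated arrays were above all WT arrays (0.56 ± 0.11, adjusted p = 0.0038). ENO2 was at 8.60, 8.49 and 8.76 in WT and at 8.91, 8.94 and 8.92 in WT+ATMi, without overlap (0.31 ± 0.08, adjusted p = 0.0144). SLC2A1 was at 11.95, 11.65 and 11.98 in WT and at 12.34, 12.21 and 12.33 in WT+ATMi. The lowest treated array was above the highest WT array (0.44 ± 0.11, adjusted p = 0.0126).

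PDK3, a kinase that holds pyruvate dehydrogenase inactive, had the largest estimate but wide WT arrays. It was at 6.89, 5.91 and 7.42 in WT and at 7.80, 7.87 and 7.84 in WT+ATMi. The treated arrays lay close together and above all WT arrays, which spanned more than 1 on the log2 scale (1.10 ± 0.28, adjusted p = 0.0144). Without WT replicate 2 the estimate was 0.69 and was still called. The PDK3 call was lost when only the groups compared were fitted, and with the covariate of detected probes. The other kept PDK3 probe, detected on 3 arrays, gave 0.34. SLC2A3 was 1.45-fold lower with the inhibitor (-0.53 ± 0.11, adjusted p = 0.00589) in the arrays given above, and EGLN1 was at 7.79, 7.64 and 7.74 in WT+ATMi, below every WT array (-0.37 ± 0.09, adjusted p = 0.0136).

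HK2, the inducible hexokinase of tumours, was at 8.56, 8.70 and 8.67 in WT and at 8.31, 8.27 and 8.34 in WT+ATMi. No array overlapped (-0.34 ± 0.10, adjusted p = 0.0251). PKM was at 12.74, 12.83 and 12.86 in WT and at 12.32, 12.65 and 12.41 in WT+ATMi (-0.35 ± 0.10, adjusted p = 0.0269). These groups did not overlap, and the other kept PKM probes had larger differences, -0.87 and -0.72. With equal array medians over all probes the values of HK2, GPI, PKM and EGLN1 turned positive (0.15, 0.19, 0.06 and 0.10), below the shifted median of all genes.

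With each array left out in turn, 6 of the 12 calls held throughout. ENO2 was lost without WT replicate 2 (0.24), PKM without WT replicate 2 or 3 or WT+ATMi replicate 1 or 3 (-0.34, -0.32, -0.28 and -0.32), and HK2 without WT replicate 2 or 3 (-0.31 and -0.32) or without each single array of WT+ATMi (-0.34, -0.32 and -0.35). BNIP3L (0.23 ± 0.07, adjusted p = 0.0317) was lost without any WT array (0.25, 0.22 and 0.22) or WT+ATMi replicate 2 or 3 (0.20 and 0.22). GPI (-0.25 ± 0.08, adjusted p = 0.045) was lost without any of the 6 arrays compared, and also without Wip1SH+ATMi replicate 2 or either of Wip1SH replicates 1 and 3 (-0.29 to -0.22). KDM3A (0.43 ± 0.14, adjusted p = 0.0468) was lost without any WT+ATMi array, WT replicate 1 or 2, Wip1SH+ATMi replicate 1 or either of Wip1SH replicates 1 and 2 (0.28 to 0.44).

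In the depleted cells, Wip1SH+ATMi against Wip1SH, 7 of the 34 genes were higher and 3 lower, against 14.3% and 9.02% of all genes (23.3% in either direction), with medians of -0.06 and 0.02. Scaling to equal array medians over all probes gave 8 higher and 1 lower. The 2 inhibitor comparisons share no array. Higher in both were PFKL, ALDOC, ENO2 and SLC2A1, 11.8% of the members against 7.08% of all genes, and lower in both were HK2 and PKM, 5.88% against 4.01%.

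ALDOC rose from 8.03, 8.03 and 7.94 in Wip1SH to 8.59, 8.88 and 8.69 in Wip1SH+ATMi, again without overlap (0.72 ± 0.10, adjusted p = 0.000662). PFKL was at 7.94, 8.14 and 8.08 in Wip1SH and at 8.61, 8.55 and 8.55 in Wip1SH+ATMi (0.52 ± 0.11, adjusted p = 0.00636). The treated depleted arrays of both genes overlapped with the untreated parental arrays, and the direct comparison with WT gave 0.13 for PFKL and 0.22 for ALDOC and called neither. VEGFA was at 6.98, 6.89 and 6.92 in Wip1SH and at 7.36, 7.80 and 7.51 in Wip1SH+ATMi, with every treated array higher (0.63 ± 0.12, adjusted p = 0.00305). NDRG1, a gene induced by stress and differentiation, was at 0.46 ± 0.08 (adjusted p = 0.00225) and PFKFB4, which sets the level of a sugar bisphosphate that activates phosphofructokinase, at 0.45 ± 0.13 (adjusted p = 0.0316).

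PKM was the gene with the largest fall here. It was at 12.85, 12.96 and 12.69 in Wip1SH and at 12.23, 12.08 and 12.26 in Wip1SH+ATMi. The groups did not overlap and differed 1.56-fold (-0.64 ± 0.10, adjusted p = 0.0014), and the other kept PKM probes were at -1.10 and -1.08. PGK1 was at 12.41, 12.46 and 12.41 in Wip1SH and fell by 0.40 ± 0.09 (adjusted p = 0.0105). HK2 was at 8.50, 8.35 and 8.59 in Wip1SH and at 8.30, 8.07 and 7.96 in Wip1SH+ATMi, without overlap (-0.37 ± 0.10, adjusted p = 0.0179). SLC2A3, already low in the depleted cells, was at -0.05.

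Of these 10 calls, 6 held with any array left out. HK2 was lost without Wip1SH replicate 1 or 3 (-0.36 and -0.32) and without Wip1SH+ATMi replicate 2 or 3 (-0.35 and -0.29), and PFKFB4 without any Wip1SH array (0.46, 0.44 and 0.44) or Wip1SH+ATMi replicate 2 or 3 (0.41 and 0.44). ENO2 (0.25 ± 0.08, adjusted p = 0.0376) and SLC2A1 (0.33 ± 0.11, adjusted p = 0.0428) were each lost without any of 8 arrays: all Wip1SH arrays, Wip1SH+ATMi replicates 1 and 3 and WT+ATMi replicates 1 and 3 for both, with Wip1SH+ATMi replicate 2 added for ENO2 and WT+ATMi replicate 2 for SLC2A1. Their log2 fold changes were then 0.23 to 0.27 and 0.27 to 0.37.

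**Figure D3:**
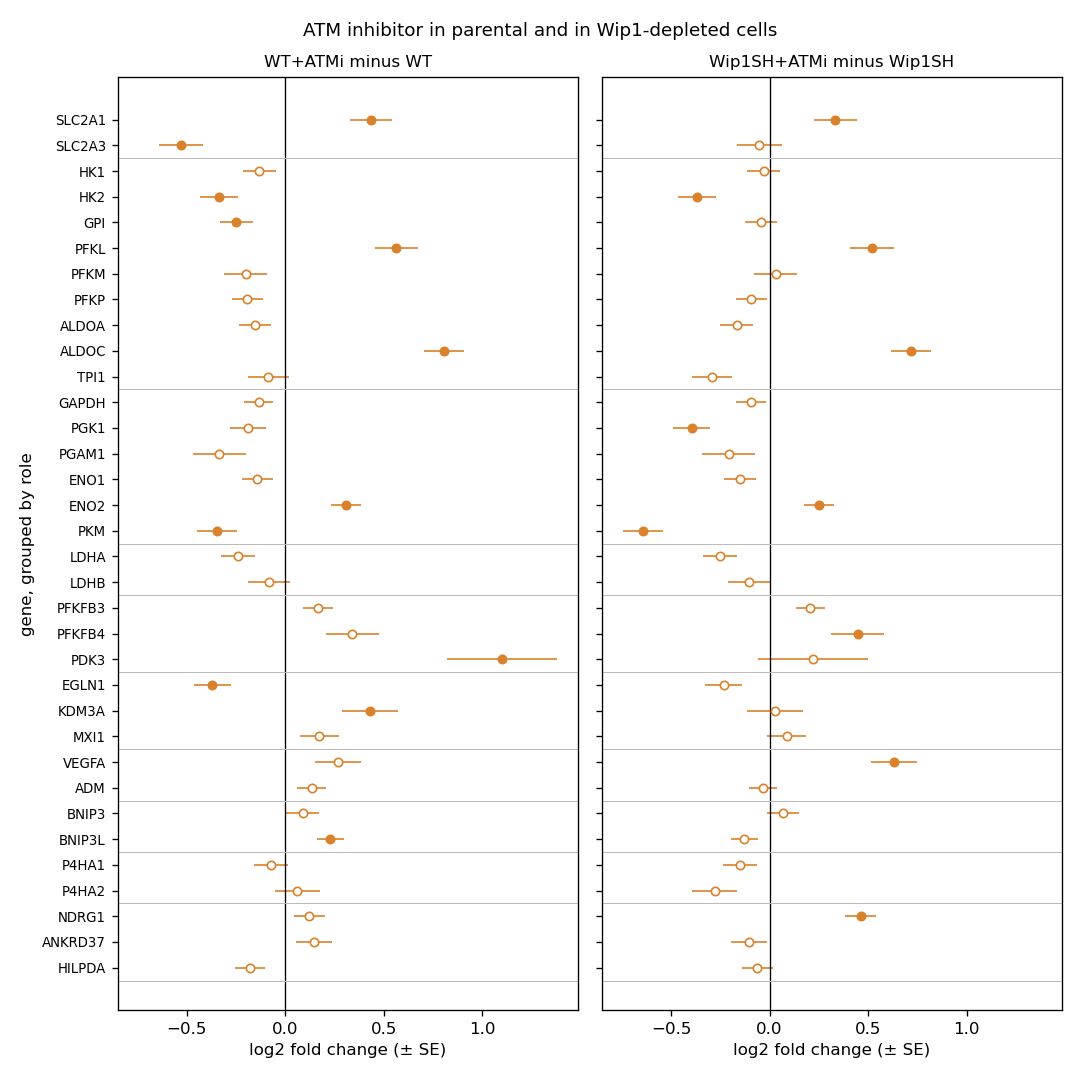
Log2 fold change of each tested gene with the ATM inhibitor, in parental cells (left) and in Wip1-depleted cells (right); points are estimates from 3 arrays per group, bars are ± 1 standard error, and filled points passed the adjusted threshold. ALDOC, PFKL, SLC2A1 and ENO2 are filled above 0 in both panels and HK2 and PKM below 0 in both; with arrays scaled to equal medians over all probes the left panel would have 18 filled points above 0 and 0 below.

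PFKL, ALDOC and ENO2 shared a pattern in these arrays: each was called lower with depletion in both comparisons and higher with the inhibitor in both. PFKP, ALDOA and ENO1, which catalyse the same reactions, were not called higher in any comparison. With equal array medians over all probes the shared pattern did not hold: the calls of all 3 genes in Wip1SH against WT were lost (PFKL at -0.09, ALDOC at -0.20 and ENO2 at -0.04), as was that of PFKL in Wip1SH+ATMi against WT+ATMi (-0.46). Their inhibitor calls in both cell types were kept under that scaling, and all of these inhibitor calls were lost with the covariate of detected probes. The promoters of the 3 genes are shown with that of PGK1, a classical HIF target that was lower and never higher, because the rule that chose the genes did not use sequence and glycolytic promoters are a known place of HIF binding. The 250 bases before each start come from RefSeq on GRCh38.p14, in the direction of transcription, with ACGTG and GCGTG on either strand in capitals (CACGT and CACGC are their other strands, and CACGTG holds ACGTG on both). The windows are chr21:44299803-44300052 for PFKL on the plus strand, chr17:28576896-28577145 for ALDOC on the minus strand, chr12:6914330-6914579 for ENO2 on the plus strand and chrX:78103998-78104247 for PGK1 on the plus strand.
PFKL: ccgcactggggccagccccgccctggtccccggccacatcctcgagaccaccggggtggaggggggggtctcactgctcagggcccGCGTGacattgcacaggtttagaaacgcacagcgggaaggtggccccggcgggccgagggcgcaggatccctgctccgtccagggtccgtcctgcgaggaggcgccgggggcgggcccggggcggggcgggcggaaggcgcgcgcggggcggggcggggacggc
ALDOC: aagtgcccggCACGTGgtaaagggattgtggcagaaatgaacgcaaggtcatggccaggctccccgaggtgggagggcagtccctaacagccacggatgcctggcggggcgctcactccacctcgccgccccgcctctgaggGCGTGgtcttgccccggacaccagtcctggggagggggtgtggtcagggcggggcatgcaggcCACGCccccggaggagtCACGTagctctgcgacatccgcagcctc
ENO2: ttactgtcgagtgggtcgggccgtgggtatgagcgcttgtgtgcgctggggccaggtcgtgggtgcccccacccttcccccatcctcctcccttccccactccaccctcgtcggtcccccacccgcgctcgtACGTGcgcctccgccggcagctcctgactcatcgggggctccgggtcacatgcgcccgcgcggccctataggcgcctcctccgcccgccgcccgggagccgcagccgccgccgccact
PGK1: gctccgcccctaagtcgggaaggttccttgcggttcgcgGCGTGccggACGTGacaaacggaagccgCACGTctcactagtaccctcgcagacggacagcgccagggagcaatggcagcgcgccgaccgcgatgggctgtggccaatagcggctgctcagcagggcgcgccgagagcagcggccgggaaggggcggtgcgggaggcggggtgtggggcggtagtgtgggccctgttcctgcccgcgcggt
These letters held 1 match for PFKL, 5 for ALDOC, 1 for ENO2 and 3 for PGK1.

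Over windows of 300 bases, 29 of the tested members had a promoter in the table and 22 of them (75.9%) held ACGTG or GCGTG on either strand. Of 9439 promoters of tested genes, 62.8% held either, and of all 27305 promoters 48.4%. ACGTG alone was in 44.8% of the members' promoters, 26.9% of those of tested genes and 21.6% of all. GCGTG was in 51.7%, 50.4% and 36.3%, and CACGTG, which counts as ACGTG too, in 17.2%, 10.2% and 7.4%. The members' promoters were also richer in G and C, with a median of 69.7% against 65.0% and 58.3%. A match is a description of the letters and shows no binding, and promoters of genes that rose and fell both held it.

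With depletion and inhibitor together, Wip1SH+ATMi against WT, 15 of the 34 genes were lower and 4 higher, against 17.1% and 23.5% of all genes (40.7% in either direction). The median was -0.10 against 0.04. With equal array medians over all probes 2 were called lower and 17 higher, and the members' median of 0.32 stood below the 0.40 of all genes. The 15 lower genes were 6 of the 9 upper-step enzymes or isomerases (HK2, GPI, PFKM, PFKP, ALDOA and TPI1), 5 of the 6 lower-step enzymes (GAPDH, PGK1, PGAM1, ENO1 and PKM), LDHA, SLC2A3, EGLN1 and MXI1. Of these, PFKM, ALDOA, TPI1, GAPDH and MXI1 turned to 0.09, 0.05, 0.03, 0.01 and 0.05 under that scaling.

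SLC2A3 was 2.64-fold lower than in WT (-1.40 ± 0.11, adjusted p = 6.94e-06) and GPI 1.63-fold (-0.71 ± 0.08, adjusted p = 6.5e-05). GPI was at 11.08, 10.92 and 10.81 in Wip1SH+ATMi, all below WT. EGLN1 was at 7.51, 7.37 and 7.34 and fell by 0.69 ± 0.09 (adjusted p = 0.000174). PGK1, at 12.73, 12.65 and 12.63 in WT and 12.13, 11.85 and 12.11 in Wip1SH+ATMi, fell by 0.64 ± 0.09 (adjusted p = 0.000267), and PKM by 0.62 ± 0.10 (adjusted p = 0.000613). PGAM1, which moves the phosphate of phosphoglycerate, was at 12.16, 12.23 and 11.99 in WT and at 11.77, 11.40 and 11.63 in Wip1SH+ATMi. Every combined array was below every WT array (-0.53 ± 0.13, adjusted p = 0.00841), and HK2 did the same (-0.53 ± 0.10, adjusted p = 0.00117). LDHA fell by 0.44 ± 0.09 (adjusted p = 0.00178), its only call.

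The 4 higher genes were VEGFA, BNIP3L, KDM3A and SLC2A1. VEGFA, at 6.75, 6.72 and 7.05 in WT, was 1.64-fold higher in Wip1SH+ATMi (0.72 ± 0.12, adjusted p = 0.000549), with no overlap. BNIP3L was at 9.89, 9.76 and 9.85 in Wip1SH+ATMi, above every WT array (0.59 ± 0.07, adjusted p = 6.83e-05). SLC2A1 was at 12.22, 12.04 and 12.34 (0.34 ± 0.11, adjusted p = 0.025). KDM3A had overlapping arrays (0.42 ± 0.14, adjusted p = 0.0335), with 7.55, 7.22 and 7.82 in WT and 7.97, 7.77 and 8.12 in Wip1SH+ATMi.

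Many of the lower enzymes are among the brightest probes. Of the 660 genes with a mean log2 intensity of 12 or more, 18.0% were higher and 20.5% lower in this comparison, with a median of -0.01. The 9 members at that level had 1 higher and 7 lower, with a median of -0.38. With equal array medians over all probes all 7 lower calls were lost. The values were then -0.26 for PGK1 and PKM, -0.07 for LDHA, -0.0037 for ENO1, 0.0077 for GAPDH, 0.03 for TPI1 and 0.05 for ALDOA.

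Leaving out arrays kept 15 of the 19 calls. PFKM was lost without WT replicate 3 (-0.31), MXI1 without WT replicate 3 or Wip1SH+ATMi replicate 3 (-0.24 and -0.20), SLC2A1 without WT replicate 2 or Wip1SH+ATMi replicate 1 or 3 (0.23, 0.33 and 0.27), and KDM3A without WT replicate 1 or 2 or Wip1SH+ATMi replicate 1 or 3 (0.44, 0.27, 0.42 and 0.34).

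**Figure D4:**
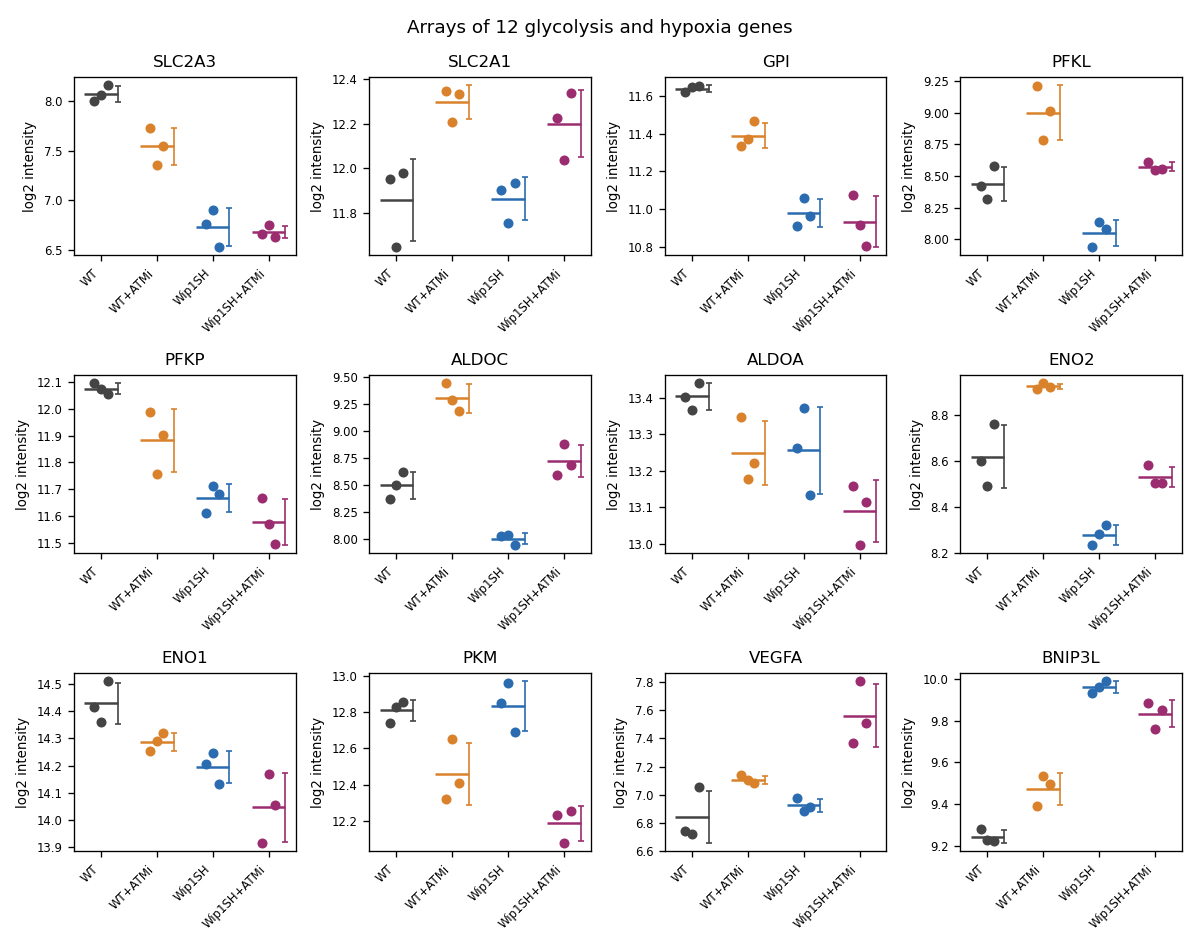
Normalized log2 intensity of 12 genes by group; points are the 3 arrays, horizontal lines the group means and brackets ± 1 SD, and each panel has its own axis. SLC2A3 steps down from WT at 8.003 to 8.16 through WT+ATMi at 7.35 to 7.73 to the depleted groups at 6.52 to 6.90, PFKL and ALDOC are highest in WT+ATMi and lowest in Wip1SH, and PKM is low in both inhibitor groups.

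Whether the inhibitor acted differently in depleted and parental cells was tested as an interaction. None of the 34 genes passed (limma, 0 called, against 3.11% of all genes, 1.90% higher and 1.21% lower), and 0 were called under each of the alternatives that could fit it. At an unadjusted p under 0.05 there were 5 members, against 18.6% of all genes. These were BNIP3L (-0.36 ± 0.10, adjusted p = 0.0756), NDRG1 (0.34, adjusted p = 0.131), SLC2A3 (0.48, adjusted p = 0.132), VEGFA (0.37, adjusted p = 0.26) and PDK3 (-0.88, adjusted p = 0.261). A gene called in 1 arm and not in the other is therefore not shown to differ between arms.

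Across the 5 comparisons 27 of the 34 genes were called at least once. The 7 never called were HK1, LDHB, PFKFB3, BNIP3, P4HA1, ANKRD37 and HILPDA. Their log2 fold changes lay between -0.20 (ANKRD37, Wip1SH+ATMi against WT+ATMi) and 0.22 (P4HA1, Wip1SH against WT). Several well-known hypoxia genes are among them: BNIP3 lay at -0.17 to 0.09, the lipid droplet gene HILPDA at -0.18 to 0.12 and ANKRD37 at -0.20 to 0.15. With equal array medians over all probes, HK1, BNIP3, ANKRD37 and HILPDA turned from below 0 to called higher in Wip1SH+ATMi against WT, and LDHB and P4HA1 did so in WT+ATMi against WT, each below the shifted median of all genes except HILPDA.

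Other probes could be set beside the tested ones. There were 20 further kept probes for 15 of the genes. Of 37 pairs of such a probe and a comparison in which the tested probe was called, 34 had the same sign. The exceptions were a dim ALDOA probe detected on 4 arrays (0.03 in Wip1SH+ATMi against WT) and a dim MXI1 probe detected on 9 arrays (0.18 in Wip1SH against WT and 0.29 in Wip1SH+ATMi against WT). The other BNIP3L probe gave 0.60 and 0.39 for the depletion comparisons. The other PGK1 probe gave -0.34 and -0.32 for them, and the other HK2 probe gave -0.15 and -0.23 for the inhibitor comparisons. A dimmer VEGFA probe detected on 8 arrays gave 0.57 in Wip1SH against WT and 0.97 in WT+ATMi against WT. The tested VEGFA probe was at 0.09 and 0.27 there and was not called. In the interaction the dimmer probe was at -0.26 and the tested one at 0.37.

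The genes that encode the HIF subunits and their controllers were read from a list of 18, of which 17 were tested; ARNT, the common partner, was detected on 0 arrays. Called higher and lower were 5 and 2 with depletion alone, 4 and 3 with the inhibitor alone, 3 and 1 with the inhibitor in depleted cells, 2 and 1 with depletion under the inhibitor, and 5 and 3 with both. As shares of the 17 these were 29.4% and 11.8% (all genes 16.8% and 15.4%), 23.5% and 17.6% (15.4% and 10.0%), 17.6% and 5.88% (14.3% and 9.02%), 11.8% and 5.88% (10.5% and 10.7%), and 29.4% and 17.6% (23.5% and 17.1%). The scaling to equal array medians over all probes made these 6 and 1, 13 and 0, 3 and 1, 0 and 1, and 11 and 1.

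HIF1A, the alpha subunit of HIF1, was lower with the inhibitor in both cell types. It was at 9.29, 9.30 and 8.89 in WT, 8.81, 8.52 and 8.39 in WT+ATMi, 9.08, 9.14 and 8.86 in Wip1SH, and 8.37, 8.38 and 8.32 in Wip1SH+ATMi. The treated arrays were below the untreated ones in each cell type, by 0.58 ± 0.13 (adjusted p = 0.0086) and 0.67 ± 0.13 (adjusted p = 0.00479) on the log2 scale. Depletion gave -0.13 and -0.22, not called, and the 2 other HIF1A probes fell in sign with the inhibitor too (-0.16 and -0.40 in parental cells, -0.68 and -0.41 in depleted cells). The call in parental cells was lost with equal array medians.

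EPAS1, the alpha subunit of HIF2, went the other way. It was at 9.73, 9.55 and 9.55 in WT and at 10.07, 10.05 and 9.98 in WT+ATMi, without overlap (0.42 ± 0.08, adjusted p = 0.00248). In depleted cells it was at 9.66, 9.56 and 9.54 without and 9.85, 9.81 and 9.79 with the inhibitor (0.23 ± 0.08, adjusted p = 0.0464), a call that was lost under 14 of 24 alternatives, among them leaving out any array but WT replicate 1. HIF1AN, the asparagine hydroxylase that blocks HIF from its coactivators, was at 8.56, 8.59 and 8.48 in WT and at 7.72, 7.82 and 7.72 in Wip1SH. The groups were far apart (-0.79 ± 0.08, adjusted p = 4.67e-05), as they were under the inhibitor (-0.54 ± 0.08, adjusted p = 0.000702). VHL, which binds hydroxylated HIF for its destruction, was at 9.16, 9.20 and 8.96 in WT and at 9.47, 9.33 and 9.53 in Wip1SH (0.34 ± 0.09, adjusted p = 0.0121), and its 2 other probes gave 0.31 each.

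**Figure D5:**
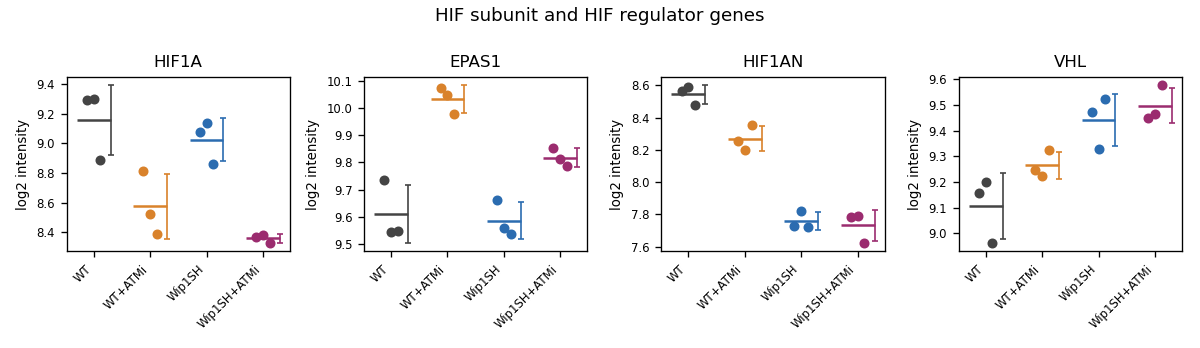
Normalized log2 intensity of HIF1A, EPAS1, HIF1AN and VHL by group; points are the 3 arrays, horizontal lines the group means and brackets ± 1 SD, and each panel has its own axis. HIF1A is lowest in Wip1SH+ATMi at 8.32 to 8.38, EPAS1 is highest in WT+ATMi, and HIF1AN is low in both depleted groups.

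A list of 40 further HIF target genes, 28 of them tested, had 9 higher and 4 lower with depletion alone, 9 and 4 with the inhibitor alone, 2 and 5 with the inhibitor in depleted cells, 9 and 4 with depletion under the inhibitor and 8 and 5 with both. As shares of the 28 these were 32.1% and 14.3% (all genes 16.8% and 15.4%), 32.1% and 14.3% (15.4% and 10.0%), 7.14% and 17.9% (14.3% and 9.02%), 32.1% and 14.3% (10.5% and 10.7%), and 28.6% and 17.9% (23.5% and 17.1%). Equal array medians made these 13 and 2, 13 and 0, 2 and 1, 6 and 4, and 14 and 0. Among the calls counted before that scaling, CXCR4, higher with the inhibitor alone, rests on WT values below detection. CA12, lower with depletion alone, rests on Wip1SH values below detection. Both genes passed the filter through other groups. ANGPTL4, an inhibitor of lipoprotein lipase, was higher with depletion (0.80 ± 0.06, adjusted p = 1.52e-05), as were the secreted glycoprotein gene STC2 (0.72 ± 0.06, adjusted p = 2.63e-05) and DDIT4, an inhibitor of mTORC1 (0.66 ± 0.08, adjusted p = 0.000112). PLOD2, a lysyl hydroxylase of collagen, was lower (-0.45 ± 0.07, adjusted p = 0.000619), and all 4 were called in the same direction under the inhibitor (0.68, 0.63, 0.39 and -0.68). The PLOD2 call without inhibitor was lost with equal array medians over all probes (-0.14) and with the covariate (-0.39). Under the inhibitor the DDIT4 call was lost with equal medians and the ANGPTL4 call with the mean of its probes. Of the other ANGPTL4 probes, 1 detected on 8 arrays gave -0.09 there. The transcription factor NFIL3 rose with the inhibitor in parental and in depleted cells (0.53 and 0.48, adjusted p = 0.000778 and 0.00154).

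Further glycolysis and glucose genes, 22 tested of 41, had 3 higher and 7 lower with depletion, or 13.6% and 31.8% against 16.8% and 15.4% of all genes. Among the lower was ENO3, the muscle enolase (-0.73 ± 0.11, adjusted p = 0.000614), and among the higher GFPT1, which opens the hexosamine pathway (0.53 ± 0.11, adjusted p = 0.00434). With both treatments 5 were higher and 8 lower (22.7% and 36.4% against 23.5% and 17.1% of all genes), and with equal array medians these pairs became 6 and 3, and 8 and 0. SLC2A12 was counted as higher with depletion and with both treatments. Each of these calls rests on WT values below detection, and the gene passed the filter through the other groups. In the pentose phosphate pathway, which branches off at glucose 6-phosphate, 11 of 12 genes were tested. With the inhibitor in parental cells 4 were higher and 2 lower (36.4% and 18.2% against 15.4% and 10.0% of all genes), with TKT, transketolase, among the higher (0.74 ± 0.09, adjusted p = 0.000384). Among the 2 lower was TKTL1, whose call rests on WT+ATMi values below detection and which passed the filter through other groups. With depletion under the inhibitor 5 were lower, among them PGD, which makes NADPH (-0.78 ± 0.11, adjusted p = 0.000438), and 1 was higher, DERA (0.49 ± 0.07, adjusted p = 0.000784), which is 45.5% and 9.09% against 10.7% and 10.5% of all genes. Equal array medians gave 8 and 1, and 1 and 2.

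The genes of pyruvate oxidation and the citrate cycle, 32 tested of 36, had 4 higher and 14 lower with both treatments (12.5% and 43.8%), against 23.5% and 17.1% of all genes, and 15 higher and 2 lower with equal array medians. PDHX, a structural subunit of the pyruvate dehydrogenase complex, was at 9.51, 9.68 and 9.29 in WT, 9.46, 9.43 and 9.50 in WT+ATMi, 9.15, 9.06 and 8.99 in Wip1SH and 8.53, 8.47 and 8.44 in Wip1SH+ATMi. The combined arrays were the lowest of the 4 groups, 2.02-fold below WT (-1.01 ± 0.09, adjusted p = 1.55e-05). Its interaction passed narrowly (-0.55 ± 0.13, adjusted p = 0.0485) and was lost under 15 of the 23 alternatives that could fit it, among them leaving out any array but WT replicate 2 (-0.59 to -0.45). IDH3A, of the citrate cycle, fell with the inhibitor in parental cells (-0.65 ± 0.10, adjusted p = 0.000984) and in depleted cells (-0.46 ± 0.10, adjusted p = 0.00691), and both calls were lost with equal array medians over all probes (-0.16 and -0.30) and with the covariate (-0.32 and -0.21). The cytosolic IDH1 rose in parental cells (0.58 ± 0.10, adjusted p = 0.00231). PDK4 was not detected on any WT array and was at least 1.30-fold higher in WT+ATMi. It was detected on 8 arrays, all of other groups, and passed the filter through these. Its adjusted p of 0.00108 rests on WT values below detection, as does its call among the 4 higher with both treatments. The dependence of PDK4 on scaling and the covariate was not tested. With the covariate of detected probes the inhibitor calls of HIF1A and NFIL3 in both cell types, those of EPAS1, TKT and IDH1 in parental cells, the depletion calls of VHL and GFPT1 and the combined call of PDHX were lost as well.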

How the data were processed

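Illumina HT-12 expression arrays of 12 samples were analysed, 3 for each of the 4 groups given by the sample labels. Per the file headers, the authors' scanner tables give an intensity per probe and a detection p-value, and the authors' deposited value table gives log2 values. Intensities were background-corrected, quantile-normalized and put on the log2 scale with neqc in limma 3.58.1 under R 4.3.3 (offset 16). The result equalled the deposited log2 values within 5e-06. Probes with a detection p-value under 0.05 on at least 3 arrays were kept, 15772 of 47323. Genes were named from the platform annotation, in which 30113 probes had 1 symbol, 8 several and 17202 none. The kept probe with the highest mean stood for its gene, which left 11785 genes. Linear models with lmFit and eBayes held 4 group means and no covariate, and p-values were adjusted over all genes after Benjamini and Hochberg. The fit was tested on simulated data. Alternatives covered background, scaling, filter, probe choice, array weights, the replicate number, detected probes and each array left out.

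The members and lists were chosen with earlier results of these data known. Any member may be named. Full statistics go to up to 6 members each way with the largest called change per comparison (4 in the interaction), and array values to members with a called log2 change of at least 0.5. Genes of the other lists were named from the up to 3 each way with the smallest adjusted p per comparison, besides HIF1A, EPAS1, ARNT and VHL. Array values of further members, of HIF1AN and of PDHX were added after their values were seen. CA12, CXCR4, SLC2A12 and TKTL1 were named because a group compared had no detection. Mean array signal was 513.5 to 746.1, and precision is limited by the number of arrays. Correlations over probes were 0.991 to 0.995 within groups and 0.976 to 0.988 between them. Promoters were taken from RefSeq on GRCh38.p14.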

Additional observations from a re-analysis of the deposited data

How the results depend on the processing

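Of the 69 calls, 43 were kept whichever array was left out, and 8 under all 24 alternatives: GPI and SLC2A3 in both depletion comparisons, SLC2A3 in Wip1SH+ATMi against WT, ALDOC and PGK1 in depletion under the inhibitor, and BNIP3L in Wip1SH against WT. Counts are given as higher, then lower. For Wip1SH against WT (2 and 13) equal array medians over all probes gave 4 and 2, the covariate of detected probes 1 and 2, and a fit of only the groups compared 1 higher. For WT+ATMi against WT (7 and 5) equal medians gave 18 and 0, the covariate 0 and 0, the groups compared 3 and 3, and medians over tested probes 9 lower. For Wip1SH+ATMi against Wip1SH (7 and 3) the covariate gave 0 and 0, equal medians 1 lower, an offset of 50, the stricter filter and the mean of probes 5 lower each, and no background correction 6 lower. For Wip1SH+ATMi against WT+ATMi (2 and 11) equal medians gave 1 and 7 and the covariate 1 and 5. For Wip1SH+ATMi against WT (4 and 15) equal medians gave 17 and 2, the covariate 0 and 1, and the groups compared 2 higher. Leaving out 1 array gave, in the same order, 1 to 3 and 8 to 14, 4 to 9 and 2 to 5, 4 to 8 and 2 to 5, 1 to 2 and 7 to 13, 2 to 6 and 13 to 15, and 0 to 0 interactions. The cause of these shifts was not tested.

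Equal medians reversed, in Wip1SH+ATMi against WT, HK1 (0.37), PFKM (0.0881), ALDOA (0.0484), TPI1 (0.0281), GAPDH (0.0077), ENO2 (0.37), BNIP3 (0.37), ANKRD37 (0.35), HILPDA (0.41), MXI1 (0.0549), PLOD2 (0.0517) and ENO3 (0.0582). In WT+ATMi against WT they reversed HK2 (0.15), GPI (0.19), PKM (0.0575), LDHB (0.35), EGLN1 (0.10), P4HA1 (0.41), HIF1AN (0.21), ANGPTL4 (0.0711), ENO3 (0.42) and PDHX (0.45), and in Wip1SH against WT NDRG1 (0.0147). The covariate reversed MXI1 (0.007) and the mean of probes ANGPTL4 (-0.0702), both in Wip1SH+ATMi against WT.

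With the group means taken away, same-numbered arrays of different groups correlated at -0.0819 to 0.141 and differently numbered ones at -0.138 to 0.151. For 7 of 12 arrays the best partner in another group had the same number. Whether the replicate numbers mark pairs was not tested. With the replicate number as a block 5 calls were lost and 1 gained.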
